A study of Mus musculus with 9 samples.

Results

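The 40 cell cycle genes described here were taken by symbol from the 32285 genes counted in a droplet experiment on nuclei of mouse epididymal fat. All 40 symbols were found, each matching 1 gene, and all 40 had UMIs (barcodes that stand for single RNA molecules) in every one of the 9 libraries taken whole. Together they gave 129413 UMIs in 73108 kept nuclei. Each library held nuclei of 5 pooled male C57BL/6J mice and each diet group had 1 library, so no comparison between groups has a replicate check and no test between groups was made. Brackets hold 95% intervals, which reflect counting error and leave out the spread between animals or pools.

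No transgene or drug was used, and the groups differed in diet and age. The chow groups C, CC and CCC were taken at 18, 26 and 39 weeks. The methods give C a low-fat control diet and CC and CCC a later switch to another chow. Group H had 12 weeks of high-fat diet (HFD) and was taken at 18 weeks, and group HH had 25 weeks of it and was taken at 31 weeks. Weight loss followed in HC (12 weeks of HFD, then 8 of chow, taken at 26 weeks) and in HHC (25 weeks, then 8, taken at 39 weeks). CCH met HFD for the first time, for 4 weeks after chow, and HCH met it again for 4 weeks after 12 weeks of HFD and 8 of chow, both taken at 30 weeks. The comparisons follow the design: H with C and HH with CC for obesity, HC with CC and HHC with CCC for the state after weight loss, and HCH with CCH for a renewed against a first exposure. The labels place C, H, HH, CCH and HCH in sequencing set S075 and CC, CCC, HC and HHC in set S019, so HH with CC crosses sets and ages, and HH is also set beside C.

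A dividing cell copies its DNA in S phase, condenses and separates the copies in mitosis, and parts the daughter cells in cytokinesis. Many genes for these steps are silent in resting cells and are switched on as a programme, by E2F factors around the start of S phase and later by the MuvB complex with B-Myb or FoxM1, which binds CHR (cell cycle genes homology region) elements of promoters. The CCAAT boxes often found near them are bound by a separate factor, NF-Y. Adipocytes do not divide, whereas resident macrophages of fat are known to proliferate locally in obesity. The members were arranged by role as replication (Rrm2, Brip1, Pola1, Atad2, Mcm5 and Mcm6), chromosome structure (Top2a, Mki67, Smc2, Smc4, Ncapg and Ncapg2), kinesins (Kif4, Kif11, Kif14, Kif15, Kif18b, Kif20b, Kif23 and Cenpe), centromere and checkpoint (Cenpf, Knl1, Bub1, Bub1b, Incenp and Ttk), spindle (Aspm, Tpx2, Nusap1, Prc1 and Hmmr), cytokinesis (Anln, Diaph3, Cit and Ect2), and cyclins and kinases (Ccna2, Ccnb1, Ccnb2, Cdk1 and Melk).

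The 40 genes are spread over 16 chromosomes of GRCm38, with at most 5 on each (chromosomes 2 and 9). RefSeq promoter windows of build GRCm38.p6 were available for 35 members. To show the elements through which such genes are known to be controlled, the 250 bases before the start site are printed for Top2a, Mki67, Ccnb1, Ccnb2 and Cdk1, widely used marks of dividing cells, and for Pola1 and Kif23, whose levels followed another course below. Bases are 5′ to 3′ on the gene's strand, and capitals mark matches on either strand, overlaps included. CHR was searched as TTTGAA and as TTTAAA, the CCAAT box by its name, and E2F as TTTCCCGC and also as TTTGGCGC and also as TTTCGCGC.
Top2a (chr11:99024190-99024439, minus strand): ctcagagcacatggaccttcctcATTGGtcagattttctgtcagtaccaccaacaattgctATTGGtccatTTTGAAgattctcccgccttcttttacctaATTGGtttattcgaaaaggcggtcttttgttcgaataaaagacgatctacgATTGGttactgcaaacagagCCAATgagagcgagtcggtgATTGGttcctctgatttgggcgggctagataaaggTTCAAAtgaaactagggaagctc
Mki67 (chr7:135716380-135716629, minus strand): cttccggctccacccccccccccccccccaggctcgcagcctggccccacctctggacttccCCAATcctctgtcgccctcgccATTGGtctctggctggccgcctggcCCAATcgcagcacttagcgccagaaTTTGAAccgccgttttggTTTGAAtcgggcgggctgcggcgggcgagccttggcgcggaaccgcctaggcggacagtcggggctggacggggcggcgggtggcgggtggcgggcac
Ccnb1 (chr13:100786487-100786736, minus strand): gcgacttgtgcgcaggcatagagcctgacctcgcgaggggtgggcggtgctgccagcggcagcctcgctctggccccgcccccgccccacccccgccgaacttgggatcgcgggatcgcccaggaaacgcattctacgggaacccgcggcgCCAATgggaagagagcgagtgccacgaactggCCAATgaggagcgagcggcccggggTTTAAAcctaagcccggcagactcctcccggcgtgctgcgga
Ccnb2 (chr9:70421555-70421804, minus strand): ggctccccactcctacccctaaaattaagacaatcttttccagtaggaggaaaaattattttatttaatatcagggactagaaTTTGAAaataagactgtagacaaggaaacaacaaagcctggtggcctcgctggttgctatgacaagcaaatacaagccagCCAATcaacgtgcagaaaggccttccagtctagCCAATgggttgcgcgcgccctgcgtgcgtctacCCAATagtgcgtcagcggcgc
Cdk1 (chr10:69352913-69353162, minus strand): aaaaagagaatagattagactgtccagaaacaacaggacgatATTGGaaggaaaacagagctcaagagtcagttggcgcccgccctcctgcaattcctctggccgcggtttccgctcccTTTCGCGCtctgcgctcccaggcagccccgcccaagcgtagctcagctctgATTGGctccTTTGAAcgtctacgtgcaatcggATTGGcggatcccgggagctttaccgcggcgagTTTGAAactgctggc
Pola1 (chrX:93632156-93632405, minus strand): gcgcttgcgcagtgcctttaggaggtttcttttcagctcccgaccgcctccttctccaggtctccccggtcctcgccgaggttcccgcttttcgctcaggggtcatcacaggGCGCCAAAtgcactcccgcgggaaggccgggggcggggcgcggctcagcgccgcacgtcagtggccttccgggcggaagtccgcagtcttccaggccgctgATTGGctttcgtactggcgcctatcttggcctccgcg
Kif23 (chr9:61946800-61947049, minus strand): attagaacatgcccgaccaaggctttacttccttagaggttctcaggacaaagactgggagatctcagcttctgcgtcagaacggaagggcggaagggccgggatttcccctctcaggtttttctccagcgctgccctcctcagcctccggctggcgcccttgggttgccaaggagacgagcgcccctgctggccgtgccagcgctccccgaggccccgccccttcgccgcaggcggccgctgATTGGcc

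Top2a held 6 CCAAT matches and 2 CHR matches, the nearer CHR 23 bases before the start site. Ccnb1 held 2 CCAAT matches and a CHR 42 bases before the start, and Ccnb2 held 3 CCAAT matches at 87, 54 and 21 bases and a CHR at 167 bases. Cdk1 was the only one of the 7 printed with all 3 kinds of match. Pola1 had an E2F and a CCAAT match but no CHR in this window, and Kif23 had 1 CCAAT match. Over the 35 members with a window, CCAAT was present in 77.1%, CHR in 45.7% and E2F in 17.1%, beside 37.5%, 28.1% and 1.78% of all 27025 genes with a window. The CHR was found in all 5 chromosome structure members with a window but in only 1 of 5 replication members (Mcm5), whereas E2F matches were held by 3 replication members (Pola1, Mcm5 and Mcm6) and otherwise by Ncapg2, Kif15 and Cdk1. A match is a run of letters and not a measured binding site, and bases after the start site were not searched.

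Nuclei were grouped by cell class before members were summed. Clusters were made in each library without the members and the other cell cycle lists and were named from fixed markers, for example macrophage-like where at least 3 of 18 macrophage markers stood out. Macrophage-like nuclei numbered 24543, from 493 in CC and 505 in CCC to 5654 in H and 6018 in HH, and all 18 macrophage markers had UMIs in each of these 9 class sums. From 2.66% of kept nuclei in CCH to 28.2% in CC and 32.9% in CCC lay in clusters that were mixed or could not be named and were left out of the classes. Markers of other cells were counted there too, and their part in the results was not tested. Adipocyte markers summed over macrophage-like nuclei ranged from 825 CPM (a gene's UMIs scaled to 1000000 UMIs of the class) in H to 7733 in CC, and all 12 such markers were seen in every library. The 8 B cell markers summed to 529 to 702 CPM in C, CC, CCC and CCH and to 66.8 (H) to 216 (HCH) in the others, with 6 seen in CC and all 8 elsewhere. The 7 mast cell markers summed to 15.3 to 25.8 CPM in those 4 and to 17.5 (HC) to 220.2 (HH) in the others, with 4 to 7 seen. The 10 progenitor markers, all seen in every library, were highest in the 3 libraries with the highest member sums, at 1658 CPM in HCH, 1171 in HH and 829 in H against 405 (HC) to 791 (CC) in the others. Any 2 libraries shared 8 to 55 barcodes, and at most 1 of those had 3 or more members in both.

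The members were measured in every class. Summed over all 40, macrophage-like nuclei held 775, 459 and 851 CPM in C, CC and CCC, 1233, 1170 and 1261 in H, HH and HCH, and 708, 745 and 823 in HC, HHC and CCH. In order these were HCH, H, HH, CCC, CCH, C, HHC, HC and CC. The counting intervals of HCH and H overlapped, as did those of CCC with CCH and with C, of C and HHC, and of HHC and HC, whereas CC lay apart from all others. Progenitor-like nuclei (fibroblast-like cells that give rise to adipocytes) held 261 CPM in CC to 494 in H, below the macrophage-like value in each library. Adipocyte-like nuclei, which should lack the programme, held 165 CPM in CC to 326 in HHC. Macrophage markers in adipocyte-like nuclei were also highest in HHC, at 4069 CPM against 608 (C) to 2040 (H) elsewhere, with all 18 seen in every library, as were T or NK cell markers (102 CPM) and B cell markers (152 CPM). Their part in the HHC value was not tested. Dendritic cell-like nuclei, named in 4 libraries only, held 2027 CPM in H, 2795 in HH, 1605 in HHC and 2245 in HCH, the highest of the classes in each of these but from 107 to 185 nuclei, with the exception of HCH, where 49 low-count mesothelial-like nuclei held 2844 CPM. Smooth muscle- or pericyte-like nuclei held 1315 CPM in CCH, from 64 nuclei, and 179.5 to 516 in the 6 other libraries where they were named. T or NK cell-like nuclei ranged from 457 CPM in CC to 1651 in HH, in 70 to 381 nuclei. The mixed clusters left out of the classes held 1495 CPM in 173 nuclei of HC and 1454 in 162 nuclei of CCH. Both lay above the macrophage-like values there, and mixed clusters of the other libraries held 202 (CC) to 702 (H) CPM. Their part in the HC and CCH comparisons was not tested. Pola1 weighed on the macrophage-like sums: it gave 13.3% of the macrophage-like member UMIs in HH and 14.5% in H but 31.2% in C and 32.9% in CC. In CCC it gave 19.9%, and in the other libraries 17.4% (HCH) to 27.0% (CCH). Without Pola1 the other 39 members summed to 533, 308 and 682 CPM in C, CC and CCC, 1054, 1014 and 1042 in H, HH and HCH, and 569.9, 611 and 601 in HC, HHC and CCH.

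**Figure D1:**
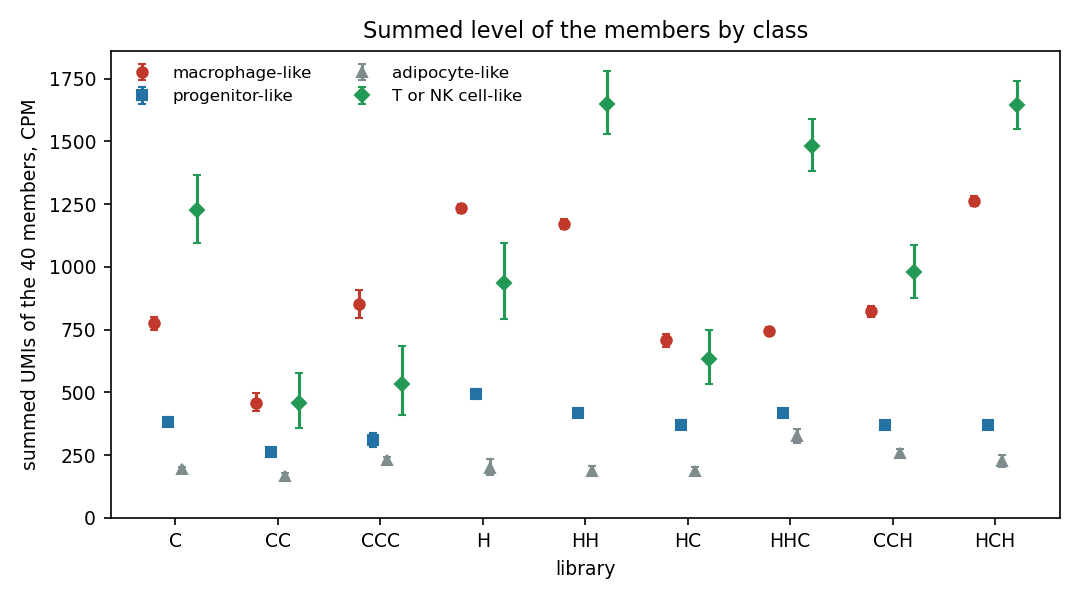
Summed level of the 40 members (CPM, vertical axis) in each library (horizontal axis) for macrophage-, progenitor-, adipocyte- and T or NK cell-like nuclei, with exact Poisson 95% intervals as bars. Macrophage-like values in H, HH and HCH lie between 1170 and 1261, above the other 6 libraries, and adipocyte-like values stay under 326 in all 9.

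Members occurred together in the same nuclei. A nucleus with UMIs of at least 3 different members is called a 3-member nucleus below, without a claim on its phase. There were 6661 such nuclei, of which 55.8% (54.6 to 57.0) were macrophage-like, from 18.7% in CCC and 19.4% in CC to 72.0% in HH and 77.4% in H. Macrophage-like nuclei were 9.20% (CCC) to 58.8% (H) of all kept nuclei. How strictly a member kept to nuclei that held 3 or more of the other members differed by gene. For the kinesins Kif18b, Kif14 and Kif4 this was 96.2%, 94.7% and 94.3% of macrophage-like UMIs, for the checkpoint kinase Bub1 92.1%, for Knl1 90.8% and for Top2a 90.3%. The lowest values were 40.1% for Incenp, 41.8% for Smc4, 42.6% for Pola1, 50.2% for Ncapg2 and 50.8% for Mcm6. In the median over members of a role it was 60.0% for replication and 67.4% for chromosome structure against 88.0% for spindle and 87.7% for kinesins. Top2a had a UMI in 26.1% of macrophage-like nuclei with 3 or more other members and in 1.26% of the rest, whereas Pola1 had one in 58.4% and 22.5%. Nuclei with 3 or more other members are deeper, and a gene with more UMIs per nucleus is found in more of any nuclei, so these shares describe the spread and are not a measure of regulation.

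**Figure D2:**
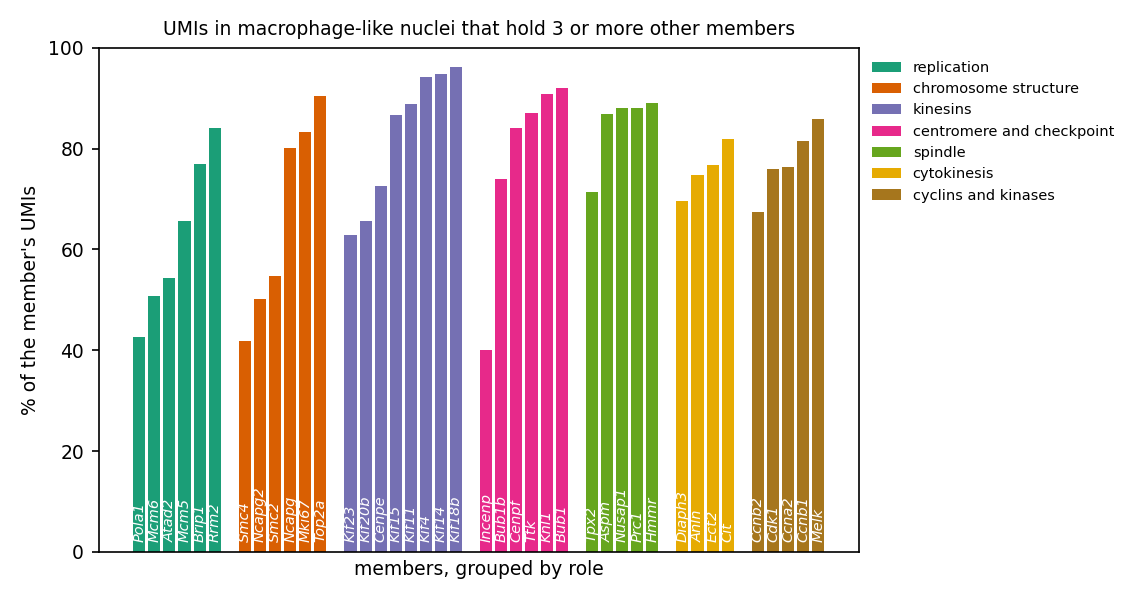
Percentage of each member's UMIs in macrophage-like nuclei of all 9 libraries that lay in nuclei with UMIs of at least 3 other members (bars, grouped and coloured by role). Bars run from 40.1% for Incenp to 96.2% for Kif18b.

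Among macrophage-like nuclei the share with 3 or more members was 8.65%, 6.49% and 8.71% in C, CC and CCC, 16.6%, 12.03% and 19.9% in H, HH and HCH, and 14.5%, 19.4% and 15.6% in HC, HHC and CCH. In adipocyte-like nuclei of the same libraries it was 2.47% (HC) to 9.68% (HHC), with median depths of 2249 to 4986 UMIs there and 1941 to 3585 in macrophage-like nuclei. Because depth differed, each nucleus was also thinned to 1000 UMIs, with 3 (CC) to 426 (HH) shallower macrophage-like nuclei left out. The shares then became 3.34%, 1.22% and 3.39% in C, CC and CCC, 8.69%, 6.74% and 8.06% in H, HH and HCH, and 4.22%, 3.88% and 4.05% in HC, HHC and CCH, over adipocyte-like shares of 0 to 2.53%. After thinning, H, HCH and HH had the highest shares, and the other 6 libraries lay at 4.22% or less. H stood above C by 5.35 (4.12 to 6.45) percentage points, HH above CC by 5.52 (3.96 to 6.47) and above C by 3.398 (2.22 to 4.43), HC above CC by 2.99 (1.27 to 4.40), and HCH above CCH by 4.004 (2.71 to 5.22). Between HC and C the difference was 0.872 (-0.517 to 2.34) and between CCH and C it was 0.708 (-0.572 to 1.97), neither detectable at this depth. HC and C also differ in sequencing set and age, and CCH and C in age. For HHC and CCC the difference was 10.7 (7.55 to 13.3) points with all UMIs and 0.482 (-1.75 to 2.02) after thinning, while the summed CPM was lower in HHC, so no order of these 2 libraries is read from the shares.

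**Figure D3:**
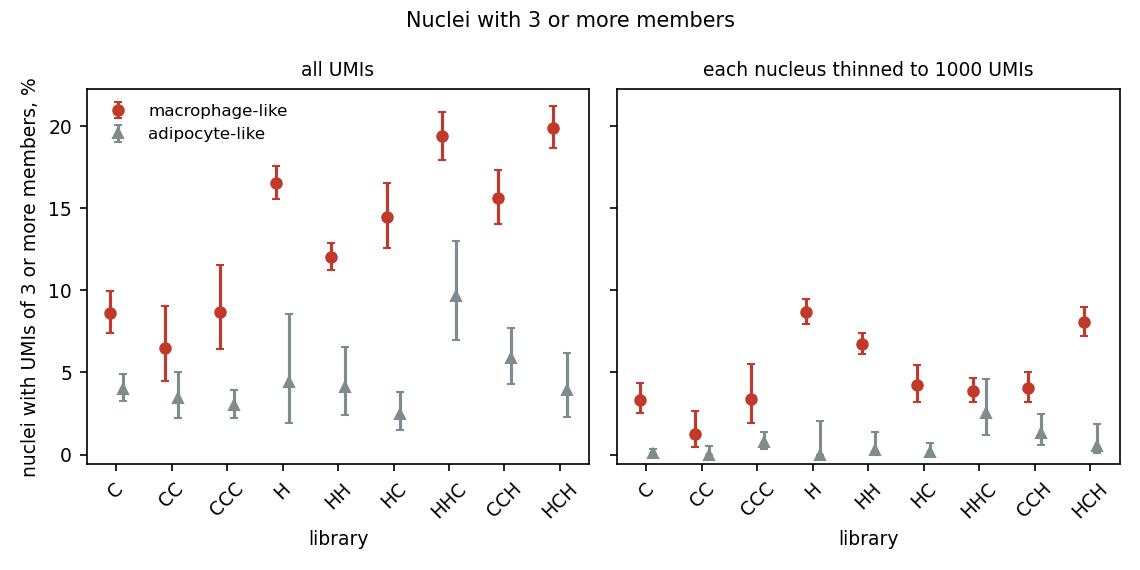
Percentage of nuclei with UMIs of 3 or more members (vertical axis) per library, in macrophage-like (circles) and adipocyte-like (triangles) nuclei, with all UMIs (left) and after thinning each nucleus to 1000 UMIs (right), with exact Clopper-Pearson 95% intervals. After thinning the macrophage-like shares of H, HCH and HH are 8.69%, 8.06% and 6.74%, and the other 6 libraries lie between 1.22% and 4.22%.

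The limit of 3000 detected genes per nucleus, taken from the methods of the study, touched 3-member nuclei more than others. Among macrophage-like nuclei with no upper limit, the share of 3-member nuclei over 3000 genes was 9.27% in HH, 9.61% in CCH, 11.6% in C, 13.5% in CC, 16.5% in H, 18.5% in CCC, 20.7% in HCH, 40.3% in HHC and 41.1% in HC, beside 0.843% to 10.3% of nuclei with fewer members. Kept 3-member nuclei had median depths of 2860 (CCC) to 4373 UMIs (HHC). Doublet calls took 0% to 5.88% of 3-member macrophage-like nuclei and 0.307% to 2.86% of the others.

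Compared library with library, most members were higher in macrophage-like nuclei of obese mice than of chow mice. The members were chosen with earlier results of these data known, so the counts below are a description. With at least 10 UMIs over the 2 libraries, 29 of 40 members were past 2-fold (a CPM ratio of 2 or more whose interval excluded 1) in H over C and none in the other direction, against 23.1% of all genes tested higher and 14.4% lower. HH over CC also gave 29 of 40 higher and 0 lower (all genes: 23.3% and 15.2%). However, the 29 include Kif18b, with 0 UMIs in CC and an interval that starts at 1.32-fold. HH over C gave 25 and 0 (25.0% and 13.2%). HC over CC gave 12 of 38 higher and 0 lower (9.15% and 14.3%). Ncapg is among them at 0 UMIs in CC, with an interval that starts at 1.25-fold. HHC over CCC gave 0 higher and 2 lower (7.87% and 9.44%), namely Aspm and Kif23. HCH over CCH gave 27 of 40 higher and 0 lower (15.2% and 3.99%). The median log2 ratio of the members was 1.30 in H over C, 1.92 in HH over CC (1.82 with the 3 members at 0 UMIs in CC set to the limit of 3 counts), 0.95 in HC over CC (0.80 so set), -0.26 in HHC over CCC and 1.18 in HCH over CCH, where the medians of all genes were 0.19, 0.21, -0.08, 0.00 and 0.20. HH and HC were both set against CC, so these comparisons are not independent.

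**Figure D4:**
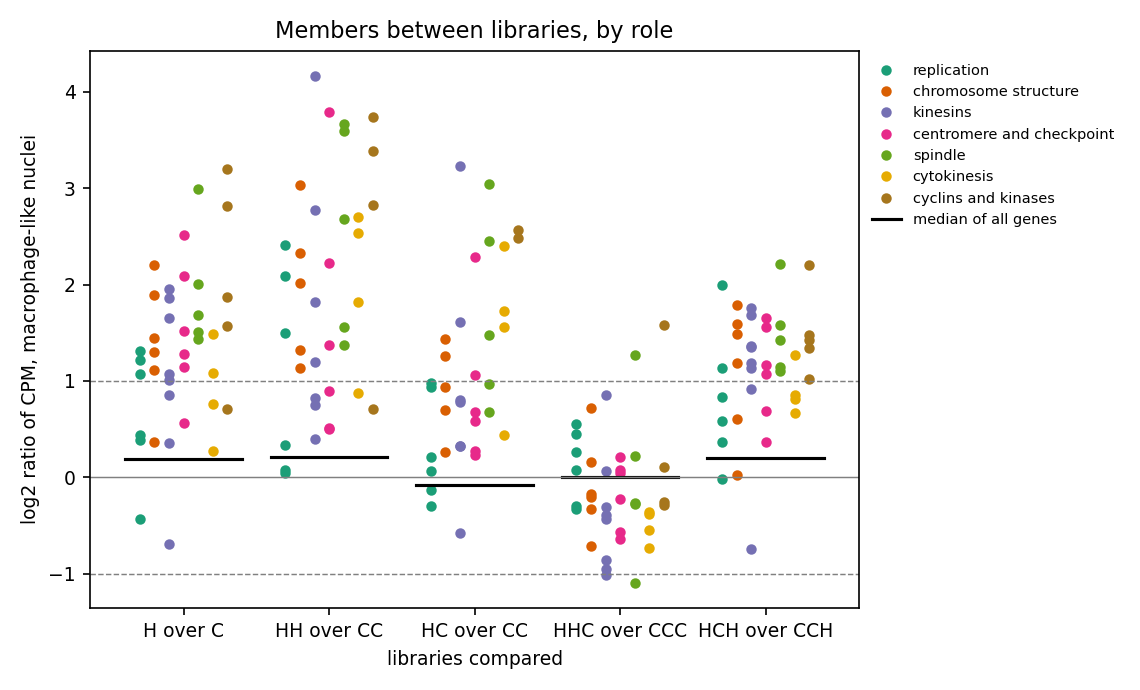
Log2 ratio of CPM between 2 libraries (vertical axis) in macrophage-like nuclei for each member (points, coloured by role) in the 5 comparisons (horizontal axis), with black lines at the median of all genes and dashed lines at 2-fold. Members with under 10 UMIs or at 0 UMIs in 1 library are not drawn. Nearly all points lie above 0 in H over C, HH over CC and HCH over CCH, and on both sides of 0 in HHC over CCC.

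The 3 chow libraries themselves differed: CC held the lowest CPM of all 9 libraries for 23 of 40 members and C for 9. Set against the highest of the 3 chow libraries, 32 of 40 members lay above it in H, 31 in HH and 33 in HCH, where 42.4%, 42.6% and 34.9% of all genes did. In HC 11 members lay above all chow libraries, in HHC 10 and in CCH 7, where 21.4%, 33.4% and 18.3% of all genes did. Below all 3 lay 1 member in H and 0 in HH and HCH (27.0%, 26.7% and 24.3% of all genes), and 4, 2 and 2 in HC, HHC and CCH (32.5%, 25.0% and 27.6%). These were Kif23 in H, Kif23, Pola1, Ccna2 and Mcm5 in HC, Kif23 and Pola1 in HHC, and Kif14 and Incenp in CCH. Pola1, Kif23, Kif4, Ncapg and Aspm were above the chow range in none of H, HH and HCH. Summed over members, H was 1.59 (1.54 to 1.65) times C, HH 2.55 (2.36 to 2.76) times CC but 1.51 (1.46 to 1.57) times C, HC 1.54 (1.42 to 1.68) times CC, HHC 0.876 (0.818 to 0.939) times CCC and HCH 1.53 (1.49 to 1.58) times CCH. HC was 0.914 (0.870 to 0.961) times C, so its direction depended on the chow library. The direction for HHC was not stable either. On the log2 scale it was -0.19 as given, but 0.18 with no upper limit on genes, 0.58 per nucleus and 0.70 against CC in place of CCC. With no upper limit HC over CC was 0.95 in place of 0.63.

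**Figure D5:**
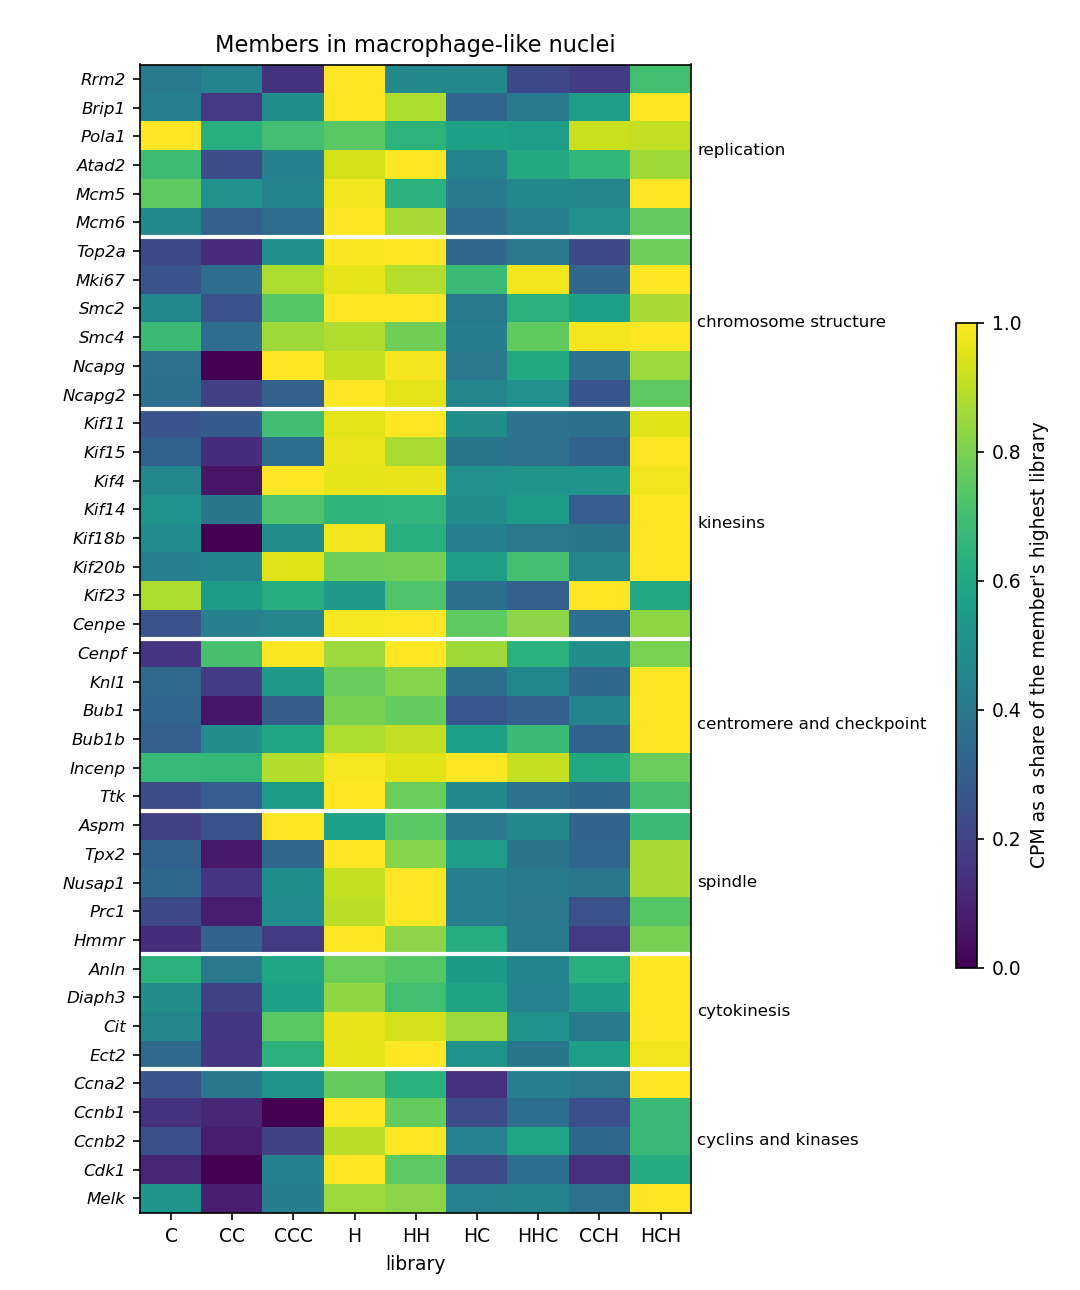
Level of each of the 40 members (rows, grouped by role) in macrophage-like nuclei of the 9 libraries (columns), as CPM divided by the member's own highest CPM (colour, 0 to 1). The highest library is H, HH or HCH for 34 of the 40 members, and CC is the lowest for 23.

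Among the replication members, the gene with the most UMIs was not higher in obesity. Pola1 encodes the catalytic subunit of DNA polymerase alpha, which starts new DNA strands. It stood at 241, 151 and 169 CPM in C, CC and CCC, 179, 156 and 219 in H, HH and HCH, and 138, 135 and 222 in HC, HHC and CCH. It was highest in C and lowest in HHC, and its ratio was 0.742 (0.691 to 0.798) for H over C, 1.03 (0.897 to 1.19) for HH over CC and 0.987 (0.926 to 1.05) for HCH over CCH. Atad2, a chromatin ATPase linked to replication, stood at 69.5, 23.7 and 44.3 CPM in C, CC and CCC, 94.2, 101 and 86.4 in H, HH and HCH, and 45.4, 60.7 and 66.9 in HC, HHC and CCH. CC was the low library here, so that HH over CC was 4.25 (3.03 to 6.16) but HH over C only 1.45 (1.28 to 1.65). Of the others, Brip1 (a DNA helicase of repair) and Mcm6 (a subunit of the replicative helicase) were past 2-fold in H over C and in HH over CC, Rrm2 (ribonucleotide reductase) in H over C and HCH over CCH, and Mcm5 in HCH over CCH only. As a sum the 6 replication members were 1.04 (0.981 to 1.098) times C in H and 1.16 (1.102 to 1.22) times CCH in HCH, the smallest ratio of the 7 roles in both. Pola1 weighed on this: the other 5 members, summed after the values were seen, were 1.66 (1.51 to 1.83) times C in H, 3.66 (2.89 to 4.70) times CC in HH and 1.49 (1.37 to 1.62) times CCH in HCH.

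The chromosome structure members held the widely used markers. Top2a, the topoisomerase that untangles sister chromatids, stood at 13.5, 7.66 and 31.4 CPM in C, CC and CCC, 62.1, 62.5 and 48.6 in H, HH and HCH, and 20.7, 25.01 and 14.1 in HC, HHC and CCH. H, HH and HCH were above all other libraries, CCC was the highest of the chow libraries, and CCH was within counting error of C. Its ratio was 4.61 (3.54 to 6.098) for H over C, 8.16 (4.54 to 16.4) for HH over CC, 2.695 (1.43 to 5.601) for HC over CC, 0.797 (0.556 to 1.18) for HHC over CCC and 3.46 (2.77 to 4.36) for HCH over CCH. Mki67, which coats mitotic chromosomes and marks proliferating cells in tissue sections, stood at 7.09, 9.75 and 24.01 CPM in C, CC and CCC, 26.3, 24.3 and 27.4 in H, HH and HCH, and 18.7, 26.8 and 9.06 in HC, HHC and CCH. CCC and HHC lay near H, HH and HCH, and H over C was 3.71 (2.58 to 5.54).

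Condensin subunits, which compact chromosomes, differed from one another. Ncapg2 stood at 18.8, 9.75 and 15.7 CPM in C, CC and CCC, 51.1, 49.1 and 38.2 in H, HH and HCH, and 23.3, 25.8 and 13.6 in HC, HHC and CCH, with 2.72 (2.17 to 3.46) for H over C and 2.81 (2.23 to 3.57) for HCH over CCH, and HHC over CCC at 1.64 (1.01 to 2.86). It was highest in H and HH. Smc4, a core subunit shared by both condensins, stood at 72.03, 37.6 and 90.5 CPM in C, CC and CCC, 93.04, 82.8 and 106 in H, HH and HCH, and 44.9, 79.98 and 104 in HC, HHC and CCH. It was highest in HCH and CCH. Its H over C ratio was only 1.29 (1.14 to 1.46) and HCH over CCH was 1.02 (0.924 to 1.12), and 41.8% of its UMIs lay in nuclei with 3 or more other members. Smc2 was past 2-fold in H over C and HH over CC. Ncapg had 0 UMIs in CC, and its interval for HH over CC started at 3.49-fold.

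Of the 8 kinesins, motor proteins of the spindle, 5 were past 2-fold in H over C, 5 in HH over CC and 6 in HCH over CCH (all genes: 23.1%, 23.3% and 15.2% higher), and 8 genes are few to set against those shares. Kif15, a motor that helps hold the spindle poles apart, stood at 13.5, 5.57 and 15.7 CPM in C, CC and CCC, 42.3, 38.04 and 43.6 in H, HH and HCH, and 17.01, 16.4 and 13.6 in HC, HHC and CCH. Its 3 highest libraries were HCH, H and HH, at 3.14-fold (2.399 to 4.17) for H over C, 6.83 (3.44 to 15.9) for HH over CC and 3.21 (2.56 to 4.07) for HCH over CCH, and HHC over CCC was 1.04 (0.633 to 1.83). Kif23, the motor of the central spindle in cytokinesis, followed another course, at 45.5, 28.6 and 32.3 CPM in C, CC and CCC, 28.1, 37.5 and 30.95 in H, HH and HCH, and 19.2, 16.0 and 51.9 in HC, HHC and CCH. It was highest in CCH and C and lowest in HHC and HC, with 0.618 (0.521 to 0.735) for H over C, 0.495 (0.342 to 0.735) for HHC over CCC and 0.597 (0.514 to 0.693) for HCH over CCH. Kif11, which pushes the spindle poles apart, was 3.63 (2.59 to 5.22) for H over C, and Cenpe, which carries chromosomes to the equator, was 3.87 (2.58 to 6.07). Kif18b had 12, 0 and 3 UMIs in C, CC and CCC, 83, 48 and 71 in H, HH and HCH, and 10, 23 and 14 in HC, HHC and CCH.

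At the centromere, Knl1, a scaffold of the kinetochore, stood at 13.7, 6.97 and 21.2 CPM in C, CC and CCC, 30.4, 32.5 and 39.7 in H, HH and HCH, and 14.6, 18.2 and 13.4 in HC, HHC and CCH. It was highest in HCH, HH and H, with 2.21 (1.69 to 2.95) for H over C, 4.67 (2.52 to 9.81) for HH over CC and 2.95 (2.34 to 3.76) for HCH over CCH. Incenp, which holds Aurora B in the chromosomal passenger complex, varied little, at 23.1, 22.99 and 30.5 CPM in C, CC and CCC, 34.2, 32.8 and 26.7 in H, HH and HCH, and 34.5, 31.5 and 20.8 in HC, HHC and CCH. All 9 of its values lay between 20.8 and 34.5 CPM and no comparison was past 2-fold, although H over C was 1.48 (1.19 to 1.85). Cenpf, a kinetochore protein, was 5.69 (3.12 to 11.6) for H over C but 1.41 (0.864 to 2.47) for HH over CC, since C held 2.52 CPM and CC 11.8. Bub1 and Ttk, kinases of the spindle checkpoint, were past 2-fold in H over C, HH over CC and HCH over CCH, and Bub1b in H over C and HCH over CCH.

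All 5 spindle members were past 2-fold in H over C, in HH over CC and in HCH over CCH, where 23.1%, 23.3% and 15.2% of all genes were, but 5 genes are few to set against those shares. Nusap1, which bundles microtubules near chromosomes, stood at 7.55, 3.48 and 11.1 CPM in C, CC and CCC, 20.4, 22.3 and 19.4 in H, HH and HCH, and 9.72, 9.21 and 8.75 in HC, HHC and CCH. Tpx2, which activates Aurora A and seeds microtubules, stood at 9.61, 2.09 and 10.2 CPM in C, CC and CCC, 30.8, 25.2 and 26.8 in H, HH and HCH, and 17.3, 11.8 and 10.0 in HC, HHC and CCH. For both genes H, HH and HCH were the 3 highest libraries, and Tpx2 was 3.21 (2.34 to 4.52) for H over C and 2.68 (2.05 to 3.56) for HCH over CCH. In HC over CC, Tpx2 was 8.25 (2.71 to 40.97), from only 3 UMIs in CC. Prc1, which cross-links the central spindle, was 4.004 (2.69 to 6.21) and Hmmr 7.98 (3.59 to 22.1) for H over C. Aspm, which works at spindle poles, was highest in CCC (13.9 CPM) and was lower in HHC, at 0.469 (0.265 to 0.884). As a sum the spindle members were 3.45 (2.86 to 4.19) times C in H, 3.43 (2.84 to 4.18) times C in HH, 3.47 (2.21 to 5.73) times CC in HC and 0.855 (0.644 to 1.16) times CCC in HHC.

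Of the 4 cytokinesis members, 2 were past 2-fold in H over C, 3 in HH over CC, 3 in HC over CC, 0 in HHC over CCC and 1 in HCH over CCH (all genes: 23.1%, 23.3%, 9.15%, 7.87% and 15.2%), too few to set against those shares. Diaph3, a formin that builds actin filaments, stood at 60.6, 24.4 and 70.2 CPM in C, CC and CCC, 103, 85.8 and 123 in H, HH and HCH, and 71.7, 54.6 and 68.1 in HC, HHC and CCH. Its H over C ratio of 1.695 (1.49 to 1.94) and HCH over CCH ratio of 1.81 (1.62 to 2.01) did not reach 2-fold. Against CC it was past 2-fold in HH, at 3.52 (2.52 to 5.08), and in HC, at 2.94 (2.07 to 4.301). Anln (anillin, a scaffold of the contractile ring) stood at 21.3, 13.2 and 19.4 CPM in C, CC and CCC, 25.6, 24.3 and 33.01 in H, HH and HCH, and 17.98, 14.9 and 20.8 in HC, HHC and CCH. No comparison of Anln was past 2-fold, and HCH over CCH was 1.59 (1.304 to 1.95). Cit (citron kinase) and Ect2 (which activates RhoA at the cleavage site) were past 2-fold in H over C, in HH over CC and in HC over CC.

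Cyclins and kinases had, as a sum, the largest ratio of the 7 roles in H over C and in HCH over CCH, from the fewest UMIs. Cdk1, the kinase that drives mitosis, had 5, 0 and 5 UMIs in C, CC and CCC, 158, 107 and 82 in H, HH and HCH, and 10, 39 and 9 in HC, HHC and CCH. In CPM this was 1.14, 0 and 4.62 CPM in C, CC and CCC, 10.5, 7.86 and 6.49 in H, HH and HCH, and 2.43, 3.78 and 1.41 in HC, HHC and CCH. A count of 0 in CC allowed up to 2.09 CPM, and the interval for HH over CC started at 3.005-fold. H over C was 9.16 (3.85 to 28.6) and HCH over CCH was 4.62 (2.32 to 10.5). Ccnb1, a mitotic cyclin that binds Cdk1, had 4, 1 and 0 UMIs in C, CC and CCC, 97, 67 and 55 in H, HH and HCH, and 6, 24 and 10 in HC, HHC and CCH. That made 6.43 CPM in H, 4.92 in HH, 4.35 in HCH and 2.33 in HHC, while the 0 in CCC allowed up to 2.77 CPM. H over C was 7.03 (2.66 to 26.3). Ccnb2 stood at 2.29, 0.697 and 1.85 CPM in C, CC and CCC, 8.36, 9.33 and 6.33 in H, HH and HCH, and 4.13, 5.53 and 3.13 in HC, HHC and CCH, with 3.65 (1.92 to 7.81) for H over C and 2.03 (1.23 to 3.49) for HCH over CCH. Ccna2, the cyclin of S and G2 phase, had 4, 2 and 2 UMIs in C, CC and CCC, 41, 31 and 45 in H, HH and HCH, and 2, 16 and 9 in HC, HHC and CCH, and H over C was 2.97 (1.08 to 11.4). Melk, a kinase of mitosis, was past 2-fold in HH over CC and HCH over CCH, and was 1.64 (1.01 to 2.78) for H over C. As a sum the 5 genes were 3.61 (2.64 to 5.05) times C in H, 3.22 (2.35 to 4.51) times C in HH and 2.74 (2.11 to 3.59) times CCH in HCH.

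Other genes of the cell cycle, from lists that hold none of the members, were counted in the same nuclei. These lists too were chosen with earlier results of these data known, so their counts are not a separate check. Of 45 S phase genes, 27 were past 2-fold higher in H over C and none lower (all genes: 23.1% and 14.4%), 33 and 0 in HH over CC (23.3% and 15.2%), 8 and 2 of 39 in HC over CC (9.15% and 14.3%), 4 and 1 in HHC over CCC (7.87% and 9.44%), and 22 and 0 in HCH over CCH (15.2% and 3.99%). Of 44 G2 and M genes the counts in the same comparisons, with the same shares over all genes, were 27 and 0, 24 and 0, 8 and 1 of 29, 1 and 4 of 39, and 22 and 0. Pcna, the sliding clamp of DNA polymerases, stood at 13.5, 9.06 and 14.8 CPM in C, CC and CCC, 50.1, 40.6 and 36.8 in H, HH and HCH, and 12.2, 28.4 and 10.8 in HC, HHC and CCH. Brca1, which repairs broken DNA, stood at 8.004, 1.39 and 5.54 CPM in C, CC and CCC, 45.96, 30.7 and 34.5 in H, HH and HCH, and 9.96, 14.9 and 10.3 in HC, HHC and CCH. Both were chosen for being past 2-fold in H over C and in HH over CC, as were Slbp (which binds histone mRNA), Dtl, Neil3, Ndc80 and Dlgap5, so high values in H and HH are a description of that choice. HCH was also above the 3 chow libraries for these 7 genes. The choice used C and CC, so this is not a separate check. For the transcription factors E2f4 and Foxm1, chosen in the same way, HCH was not above CCC. The CCC values rest on 27 and 7 UMIs, and their counting intervals overlap those of HCH. Foxm1 in H (6.37 CPM) and HH (5.36) was also below CCC (6.47), beside 5.30 in HCH. E2f4 stood at 14.9, 13.9 and 24.9 CPM in C, CC and CCC, 35.7, 31.8 and 20.4 in H, HH and HCH, and 10.2, 19.9 and 14.8 in HC, HHC and CCH. Genes of the S phase and of the G2 and M lists were also found in 3-member nuclei, to a degree that differed by library. Of macrophage-like 3-member nuclei, 15.6% (CC) to 64.1% (H) held UMIs of at least 3 S phase genes, against 2.82% (CCC) to 12.35% (HHC) of the others. For at least 3 G2 and M genes this was 15.6% (CC) to 47.5% (HH), against 1.13% (C) to 4.40% (HHC). These shares were not thinned, and 3-member nuclei were deeper in every library, with a median of 3303 UMIs against 2293.5 in H.

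Of the 8 G1 cyclins and kinases, which act before S phase, 5 were past 2-fold higher and 2 lower in H over C, and 3 higher and 1 lower in HH over CC, where 23.1% and 14.4%, and 23.3% and 15.2%, of all genes were. Cdk6 stood at 119.8, 146 and 225 CPM in C, CC and CCC, 426, 294 and 324 in H, HH and HCH, and 386, 281 and 148 in HC, HHC and CCH, and Ccne2 at 3.202, 2.09 and 6.47 CPM in C, CC and CCC, 14.9, 14.9 and 10.2 in H, HH and HCH, and 5.102, 7.37 and 4.84 in HC, HHC and CCH. Ccnd2 ran the other way, at 13.7, 35.5 and 22.2 CPM in C, CC and CCC, 4.58, 6.17 and 13.6 in H, HH and HCH, and 22.4, 14.1 and 10.3 in HC, HHC and CCH. Of 7 inhibitors, 5 were past 2-fold higher in H over C, and 3 were higher and 1 lower in HH over CC. Of 11 pocket proteins and regulators, 2 and 4 were higher and none lower in these comparisons. The shares over all genes are those just given, and lists this short are read no further. The inhibitor Cdkn1a (p21) stood at 4.57, 7.66 and 12.01 CPM in C, CC and CCC, 38.5, 33.9 and 22.95 in H, HH and HCH, and 13.4, 17.6 and 8.75 in HC, HHC and CCH, highest in H and HH. Its level in 3-member nuclei and in the others was 35.2 and 39.4 CPM in H and 13.9 and 18.8 in HHC, but 43.25 and 31.98 in HH, 27.9 and 21.4 in HCH, 16.25 and 12.7 in HC and 14.1 and 7.42 in CCH, with at most 4 UMIs in 3-member nuclei of each chow library. Foxm1 had 27.8 CPM in 3-member macrophage-like nuclei of H and 0.590 in the others, and 26.5 and 1.15 in HH. Of the 3 growth factor receptors of macrophages, Csf2ra was past 2-fold in H over C and in HH over CC, at 217, 49.5 and 208 CPM in C, CC and CCC, 767, 668 and 478 in H, HH and HCH, and 178, 387 and 243 in HC, HHC and CCH.

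The macrophage-like nuclei were not of the same kind in all libraries. Lipid-associated macrophages, which surround dying adipocytes, are marked by Trem2, Gpnmb, Spp1 and others (8 genes here), and perivascular macrophages by Lyve1, Cd163, Folr2 and others (8 genes). Of these, 4 and 3 genes were also among the macrophage markers. In macrophage-like nuclei with fewer than 3 members the lipid-associated markers summed to 559 to 1004 CPM in the chow libraries and CCH and to 5014 (HCH) to 12440 (HHC) in the others. Perivascular markers summed to 7807 to 9926 CPM in the former and 2302 to 5190 in the latter. Comparisons of members between libraries therefore set different kinds of macrophage beside each other, and the part of this in the ratios was not tested. HC and HHC had lipid-associated marker levels of 7233 and 12440 CPM beside 11270 in H and 8349 in HH. Within a library, lipid-associated markers were 1.68 (1.52 to 1.85) times as high in 3-member as in other macrophage-like nuclei of C and 1.35 (1.26 to 1.45) times in CCH. The ratio was 1.16 (0.971 to 1.38) in CCC, with an interval that includes 1, 0.804 (0.651 to 0.984) in CC, 0.907 in HC, 0.749 in H, 0.844 in HH, 0.766 in HHC and 0.918 in HCH. The 18 macrophage markers had a ratio of 0.751 in H and 0.787 in HH, and the perivascular markers of 0.741 and 0.782, so low ratios in H and HH were not found for lipid-associated markers alone. In CC both lists were higher in 3-member nuclei, at 1.15 (1.095 to 1.21) for the macrophage markers and 1.175 (1.106 to 1.25) for the perivascular ones. In the other 6 libraries the macrophage markers stood at 0.786 (CCC) to 0.876 (CCH) and the perivascular ones at 0.703 (CCC) to 1.02 (HHC, 0.992 to 1.05).

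Although the members and the other cell cycle lists were left out of the clustering, 3 libraries had a macrophage-like cluster made almost wholly of 3-member nuclei. It held 306 nuclei in H (93.8%, 90.5 to 96.2), 236 in HH (98.7%, 96.3 to 99.7) and 135 in HCH (97.0%, 92.6 to 99.2). These clusters took 30.7%, 32.2% and 16.9% of the 3-member macrophage-like nuclei of their libraries, so most such nuclei lay in clusters with other leading genes. In the other 6 libraries 3-member nuclei made up at most 27.4% of the nuclei of any macrophage-like cluster. Mixed clusters, with 1495 CPM of members in HC and 1454 in CCH, were not counted here. These 6 libraries held 493 (CC) to 2822 (HHC) macrophage-like nuclei, against 3896 (HCH) to 6018 (HH) in the 3 above. The limit of 3000 genes took 41.1% and 40.3% of 3-member macrophage-like nuclei in HC and HHC. The part of these differences in the lack of such a cluster was not tested.

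In progenitor-like nuclei the members were lower than in macrophage-like nuclei of the same library. Summed, they stood at 384, 261 and 309.5 CPM in C, CC and CCC, 494, 416 and 369 in H, HH and HCH, and 371, 417 and 369 in HC, HHC and CCH. H was 1.29 (1.22 to 1.36) times C, HH 1.595 (1.47 to 1.74) times CC and 1.08 (1.03 to 1.15) times C, HC 1.42 (1.296 to 1.56) times CC, HHC 1.35 (1.22 to 1.49) times CCC and HCH 1.001 (0.948 to 1.06) times CCH. Past 2-fold higher were 12 of 38 members in H over C (20.9% of all genes, and 7.79% lower), 8 of 37 in HH over CC (22.5% and 9.75%) and 4 of 39 in HH over C (24.4% and 6.63%). The counts were 7 of 29 in HC over CC (5.91% and 9.01%) and 7 of 33 in HHC over CCC (8.72% and 2.66%), with no member lower in these. Members at 0 UMIs in the chow library are among them. The interval of Kif15 in HHC over CCC starts at only 1.42-fold. That of Tpx2 starts at 1.86-fold in HH over CC and at 3.48-fold in HC over CC. HCH over CCH gave 1 higher and 4 lower of 37 (11.9% and 1.71%). The 4 lower ones were Kif11, Kif15, Knl1 and Diaph3. Top2a stood at 2.44, 1.94 and 1.895 CPM in C, CC and CCC, 14.04, 7.48 and 4.14 in H, HH and HCH, and 7.15, 5.06 and 3.35 in HC, HHC and CCH in these nuclei, highest in H, with 5.75 (3.23 to 11.01) for H over C. Diaph3 stood at 18.3, 9.71 and 5.05 CPM in C, CC and CCC, 37.5, 19.2 and 14.5 in H, HH and HCH, and 22.7, 12.99 and 37.99 in HC, HHC and CCH, with 0.383 (0.303 to 0.4804) for HCH over CCH. After thinning to 1000 UMIs the share of 3-member nuclei was 0.573%, 0.116% and 0.163% in C, CC and CCC, 1.91%, 0.779% and 0.635% in H, HH and HCH, and 0.515%, 0.555% and 0.713% in HC, HHC and CCH. H was the highest, 1.33 (0.652 to 2.11) percentage points above C, and all 9 shares lay inside the range of adipocyte-like nuclei. Macrophage markers in progenitor-like nuclei differed between libraries, at 524 to 747 CPM in C, CC, CCC and CCH, 1734 in HC, 2230 in HCH, 3366 in H, 3910 in HH and 4621 in HHC, with all 18 markers seen in 8 libraries and 17 in CCC, and their part in the member sums was not tested.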

How the data were processed

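Gene expression was measured by droplet RNA sequencing of nuclei (10x Genomics 3′ v3.1) in 9 pools of epididymal adipose tissue. The deposited matrices hold counts: the authors mapped reads to the mm10 reference with Cell Ranger 6.1.2, introns included, and counted UMIs per gene and barcode. The submitters' notes also name Seurat 4.1.0. Library totals ran from 22599619 to 66615262 UMIs. Here, nuclei with 500 to 3000 genes and at most 40000 UMIs were kept, as in the study's methods, and doublets called with Scrublet (scanpy 1.11.5, 0.8% expected per 1000 nuclei, used as a fixed rate where its own threshold marked under 0.5%) were removed. Each library was clustered alone (2000 variable genes without the cell cycle lists, 30 components, 20 neighbours, leidenalg 0.10.2 at resolution 1.5).

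A marker stood out in a cluster if at least 10% of its nuclei had a UMI and its CPM was at least 3 times its 25th percentile over clusters (at least 20 CPM). Clusters were named for the class with most such markers by share (at least 3). A cluster was called mixed if another class also had 3 and at least 50% of that share, unless only the first had markers among the 10 leading genes, and it stayed unnamed if another class led those genes. These thresholds were set after the data were seen. CPM used UMIs without mitochondrial genes and Malat1. Intervals were exact Poisson (levels), exact conditional (ratios), Clopper-Pearson (shares) and Newcombe (differences of shares), at 95%, and a count of 0 was given a limit of 3 counts. UMIs over nuclei of 1 pool are not replicates, and no test between groups was run. Given in every library were, of each role, the 2 members with the most UMIs, and Mki67, Top2a, Cdk1, Ccnb1 and Ccna2. Of the other lists, genes past 2-fold in H over C and HH over CC in the same direction were named, at most 4 a list by UMIs, and 1 gene that met this rule is not reported here. The members and all lists were chosen with earlier results of these data known. Only the calls and intervals were run on simulated counts. Those had no spread between pools, so that run cannot check differences between groups. Alternatives used edgeR 4.0.16 (TMM factors).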

Additional observations from a re-analysis of the deposited data

Results flagged for a closer look

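The sum of the members in macrophage-like nuclei moved in opposite directions in the comparisons of mice after weight loss with chow mice. It was higher in HC than in CC, by 0.625 on the log2 scale (0.50 to 0.75), and lower in HHC than in CCC, at -0.190 (-0.29 to -0.09). With 1 library in each group the difference between these effects was not tested. CC held the lowest member sum of all libraries and CCC the highest of the chow libraries, and the direction for HHC was not kept under 3 alternatives given below. The direction for HC was not kept against C in place of CC, at -0.129 (-0.20 to -0.06), though C differs from HC in age and sequencing set. The share of 3-member macrophage-like nuclei over 3000 genes, which were left out, was 41.1% in HC and 40.3% in HHC, against 13.5% in CC and 18.5% in CCC.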

How the results depend on the processing

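No paired analysis was possible because each group has 1 library and the labels give no replicate that groups share. For the same reason no replicate could be left out. Alternatives changed 1 choice at a time, and values below are log2 ratios of summed members unless said otherwise, beside the reported ones of 0.671 (H with C), 1.350 (HH with CC), 0.625 (HC with CC), -0.190 (HHC with CCC) and 0.615 (HCH with CCH) in macrophage-like nuclei and 0.363, 0.674, 0.507, 0.430 and 0.002 in progenitor-like nuclei. HHC with CCC in macrophage-like nuclei turned to 0.176 with no upper limit on genes, 0.579 per nucleus and 0.699 with CC in place of CCC. With no upper limit the others moved to 0.616 (H with C), 1.476 (HH with CC), 0.953 (HC with CC) and 0.816 (HCH with CCH), and in progenitor-like nuclei to 0.641 (H with C) and -0.213 (HCH with CCH).

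Without the 6 replication members the values were 1.046 (H with C), 1.689 (HH with CC), 0.924 (HC with CC) and 0.841 (HCH with CCH), and in progenitor-like nuclei 0.927, 0.966, 0.734, 0.830 (HHC with CCC) and -0.127. With TMM factors they were 0.555 (H with C), 0.760 (HC with CC) and 0.454 (HCH with CCH), and in progenitor-like nuclei 0.217 (H with C), 0.439 (HH with CC) and -0.099 (HCH with CCH). Per nucleus they were 0.907 (H with C) and 0.986 (HH with CC), and in progenitor-like nuclei 0.566, 0.132, 0.853 (HHC with CCC) and -0.124 (HCH with CCH). HH with C in place of CC gave 0.596, and 0.117 in progenitor-like nuclei, and HHC with CC there gave 0.676. Clustering at resolution 0.8, an alternative chosen after seeing the data like the use of CC for HHC, gave 0.440 for HCH with CCH.

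Differences in the share of 3-member nuclei, in percentage points, were 7.906 (H with C), 7.993 (HC with CC), 10.671 (HHC with CCC) and 4.290 (HCH with CCH) as reported with all UMIs. With no upper limit they were 13.927 (HC), 16.250 (HHC) and 6.651 (HCH), and without the replication members 4.857 (HC) and 4.751 (HHC). Asking for 2 members gave 13.144 (HC), 18.327 (HHC) and 1.971 (HCH), and for 5 members 5.362 (H), 2.769 (HC) and 1.636 (HHC). Thinning gave 5.346 (H), 2.991 (HC) and 0.481 (HHC). With clusters of foremost macrophage markers also counted, chosen after seeing the data, HHC gave 6.784.

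Of the counts past 2-fold, HC with CC rose from 12 to 21 members with no upper limit. For HHC with CCC, 2 members became 1 with TMM factors or with clusters of foremost macrophage markers added, 5 at 1.5-fold (1 higher) or with no condition on the interval (3 higher), 7 (all higher) per nucleus and 19 (all higher) with CC. Among all genes, 10.4% were called higher and 15.8% lower in HC with no upper limit. In HHC the shares under the same settings were 9.16% and 8.44% with TMM factors, 8.29% and 6.85% with the added clusters, 11.8% and 13.3% at 1.5-fold, 15.7% and 12.8% with no condition on the interval, 29.7% and 3.74% per nucleus, and 14.7% and 14.1% with CC. Over the alternatives to these results 55 of 62 counts, 24 of 42 macrophage-like sums, 21 of 37 progenitor-like sums and 32 of 47 shares stayed close to the reported value, meaning within its counting interval for sums and shares and within 1.5 times for counts. None of the 5 sums of the replication members did without Pola1, an alternative chosen after seeing the data: they moved from 0.053 to 0.728 (H with C), 0.748 to 1.871 (HH), 0.119 to 0.688 (HC), -0.113 to 0.239 (HHC) and 0.213 to 0.574 (HCH). The cause of these moves was not tested. Depth limits Ccna2, Ccnb1 and Cdk1, with 0 to 5 UMIs in each chow library, and CC and CCC, with 493 and 505 macrophage-like nuclei.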

Other observations

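Some small classes outside the comparisons held high member sums. B cell-like nuclei held 445 CPM in CCC to 960 in HC, from 25 to 315 nuclei, and mast cell-like nuclei, named in 5 libraries, held 367 CPM in HC to 966 in H, from 17 to 205 nuclei. Endothelial-like nuclei held 375 CPM in HC and 385 in CCC to 870 in H, with 545 member UMIs in 374 nuclei of H and 951 in 1120 nuclei of C (442 CPM). Mesothelial-like nuclei held 335 to 545 CPM in C, CC, CCC, HC and CCH, but 1213 in 29 nuclei of HH and 2844 in 49 nuclei of HCH, whose median depths of 1164 and 904 UMIs were the lowest of that class. T or NK cell-like nuclei after thinning to 1000 UMIs had 3 or more members in 8.43% (H), 9.57% (HH), 8.26% (HHC) and 8.31% (HCH) of nuclei and in 1.43% (CC), 1.61% (CCC), 1.03% (HC) and 2.48% (CCH), with 6.96% in C, over 62 to 349 nuclei per library.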
